A study of Mus musculus with 21 samples.

Results

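The genes described here encode the nuclear subunits of mitochondrial respiratory complexes II, III and IV and of the ATP synthase, complex V. Members were found by a rule on gene names, as the genes whose symbol on the array starts with Sdha to Sdhd, Uqcr, Cox4 to Cox8 or Atp5, together with Cyc1 and Cycs, and without the Sdhaf assembly factors. The rule found 43 of the 15967 genes with an annotated probe, and 37 of the 43 had a probe that passed a filter on detection. These were 3 of 4 genes of complex II, 6 of 8 of complex III, 15 of 17 of complex IV and 13 of 14 of complex V. Sdha, Uqcrfs1, Uqcrq, Cox7b2, Cox8b and Atp5j did not pass, and Cycs, Cox7a2l, Atp5h, Atp5o, Atp5l and Uqcr10 were not analysed here.

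RNA of mouse embryos and of embryonic stem (ES) cells was measured with 21 Illumina bead arrays, in a study of genome transfer into zygotes at different stages of the cell cycle. Each embryo array held RNA from 20 pooled embryos cultured in KSOM medium. The ES cell group had 2 arrays. M phase transfer embryos (4 arrays) and genomeless embryos (2 arrays) were taken 22 to 24 h after transfer of a genome or after removal of the genome without replacement, at an age equal to 48 to 50 h after hCG, the hormone injection that triggers ovulation. Interphase transfer embryos (2 arrays) came from enucleation and transfer at interphase and had the same age of 48 to 50 h. Drug controls (3 arrays) had been exposed at mitosis to nocodazole, which depolymerises microtubules, kept their own genome, and were also taken at 48 to 50 h. Interphase zygotes (3 arrays) were taken at 24 to 28 h, mitotic zygotes (3 arrays), arrested with nocodazole, at 32 to 34 h, and 2-cell embryos (2 arrays) at 48 to 50 h. The sources used here give neither the donor cell of the transferred genomes nor the mouse strain, nor the time since transfer of the interphase group.

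Complex II, or succinate dehydrogenase, oxidises succinate and passes the electrons to ubiquinone. Complex III moves them from ubiquinol to cytochrome c, and complex IV, cytochrome c oxidase, passes them to oxygen. Complexes III and IV pump protons, and complex V uses the proton gradient to make ATP. Mouse oocytes and cleavage embryos depend on pyruvate and on mitochondria inherited from the oocyte. The zygote starts with maternal RNA, much of which is degraded around the first cleavage, while the main wave of embryonic transcription begins at the 2-cell stage.

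Several subunits of complexes IV and V exist as paralogues that differ in the tissues that use them. Cox6a2, Cox7a1 and Cox8b are the heart and skeletal muscle forms of subunits whose widely expressed forms are Cox6a1, Cox7a2 and Cox8a. Cox6b2 and Cox8c are known as testis forms. Atp5g1, Atp5g2 and Atp5g3 encode the same mature c subunit of the ATP synthase rotor behind different targeting sequences.

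Many nuclear genes of respiratory subunits are known targets of nuclear respiratory factor 1, encoded by Nrf1, and of the ETS factor GABP, whose DNA-binding subunit is encoded by Gabpa. RNA of both factors rose at the 2-cell stage, as given below, so promoters of 4 members are shown, taken from RefSeq on GRCm38.p6. Each is the 250 bases before the annotated start, on the gene's own strand. Cox6a1 and Cox7c are subunits of complex IV that stand for a promoter with and a promoter without the motifs, and Atp5g1 and Atp5g2 are the paralogues of the c subunit that diverged most. Capitals mark the NRF1 motif GCGCANGCG and the ETS motif CCGGAAG on either strand. The windows are chr5:115348959-115349208, chr13:86046796-86047045, chr11:96075632-96075881 and chr15:102671048-102671297, all on the minus strand, in the order of the lines.
Cox6a1: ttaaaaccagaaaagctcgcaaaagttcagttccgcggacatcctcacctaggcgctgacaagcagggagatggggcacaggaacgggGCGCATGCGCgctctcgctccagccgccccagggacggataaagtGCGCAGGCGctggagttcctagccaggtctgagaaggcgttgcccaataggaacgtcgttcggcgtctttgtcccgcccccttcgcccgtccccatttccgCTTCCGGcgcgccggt
Cox7c: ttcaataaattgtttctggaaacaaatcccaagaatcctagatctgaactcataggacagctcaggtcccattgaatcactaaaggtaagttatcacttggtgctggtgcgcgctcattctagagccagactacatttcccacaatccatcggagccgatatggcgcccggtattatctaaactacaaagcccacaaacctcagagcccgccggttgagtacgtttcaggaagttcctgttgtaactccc
Atp5g1: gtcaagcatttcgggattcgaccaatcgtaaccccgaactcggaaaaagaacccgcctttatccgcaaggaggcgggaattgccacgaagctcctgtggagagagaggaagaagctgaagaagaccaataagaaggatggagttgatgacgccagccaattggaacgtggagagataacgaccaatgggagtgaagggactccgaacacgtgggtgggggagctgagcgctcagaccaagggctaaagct
Atp5g2: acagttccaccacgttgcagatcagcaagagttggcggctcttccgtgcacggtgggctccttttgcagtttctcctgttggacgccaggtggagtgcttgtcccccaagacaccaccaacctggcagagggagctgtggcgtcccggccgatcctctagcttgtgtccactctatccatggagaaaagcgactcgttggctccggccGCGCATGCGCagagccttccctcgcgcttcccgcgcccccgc
Cox6a1 held the NRF1 motif in 2 stretches and the ETS motif in 1, Atp5g2 held the NRF1 motif in 1 stretch, and neither motif was found in the windows of Cox7c and Atp5g1.

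Promoters in the RefSeq table were matched by gene identifier for 31 members, with 34 promoters in all. The NRF1 motif lay in 17.6% of these and in 5.16% of the 32851 promoters of the table. The ETS motif lay in 20.6% of member promoters and in 6.91% of all. TATAAA lay in 5.88% of member promoters and in 12.4% of all. Matches of different motifs overlapped in 0 of the 34 member promoters. Of the 5 members called higher at the 2-cell stage that had a promoter in the table, Cox6b1 and Uqcr11 held the ETS motif, Atp5g1, Cox7c and Uqcrc1 held neither, and none held the NRF1 motif. Cox6a2, Uqcrc2, Cox4i1 and Cyc1 had no entry.

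Levels are log2 probe signal after background correction and quantile normalisation, so each value is relative to the other RNA of its sample. RNA per embryo and the number of intact cells in a pool can therefore not be told apart. Arrays A and C of the mitotic zygotes differed by no more than repeat hybridisations would (SD of log2 differences over probes 0.117), as did arrays B and C of the drug controls (0.12), while the other pairs within a group had 0.28 to 1.477. Each pair was averaged and counted as 1 sample, which leaves 19 samples. Nothing states that the others came from separate collections, so p-values measure only the spread between these samples, which may be technical. Mean raw signal was 73.0 to 687.57 on 19 arrays but 11.25 on genomeless array B and 12.79 on interphase transfer array B. ES markers were all detected on both ES arrays (8 of 8), and 4 of 4 markers of the 2-cell stage on every array of the M phase transfer, drug control and 2-cell groups. At most 1 of these 4 was detected on any array of the other groups. Of the 8 ES markers, 1 to 6 were detected per embryo array, fewest on a genomeless and most on an M phase transfer array. ES cell array A carries a source label that names peripheral blood. Of 5 blood markers with a probe, Cd3e and Laptm5 were detected on both ES arrays and Ptprc, Hba-a1 and Lyz2 on neither, and 0 to 2 were detected per array of the embryo groups. Of 7 heart and skeletal muscle markers with a probe, 1 to 3 were detected per array, and Myh6, Ckm, Tnnt2 and Ckmt2 on none. Of 7 cumulus and granulosa cell markers, 0 or 1 were detected per array, with Fshr on a mitotic zygote array as the 1.

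Most members were detected in every group, and fewest in interphase transfer and genomeless embryos. A probe counted as detected where its deposited detection p-value was below 0.01. Of the 37 members, 34 and 34 were detected on the ES cell arrays, 27 to 34 on M phase transfer arrays, 22 and 22 on interphase transfer arrays and 22 and 12 on genomeless arrays. The counts were 31 to 36 on drug control arrays, 27 to 29 on interphase zygote arrays, 29 to 31 on mitotic zygote arrays and 33 and 34 on 2-cell arrays. Over all 8527 genes tested, 22.3% to 44.5% were detected on genomeless arrays and 30.3% to 52.9% on interphase transfer arrays, against 51.4% to 72.3% on the rest. Detection of the members was low in the groups where detection of all genes was low, and the lower end of both percent ranges of all genes belongs to the array with low raw signal. 11 members were detected on all 21 arrays. They were the complex IV genes Cox4i1, Cox5a, Cox5b, Cox6b2, Cox6c and Cox8a and the complex V genes Atp5b, Atp5g2, Atp5g3, Atp5j2 and Atp5mpl. At the other end Cox7b was detected only on the 2 ES cell arrays, Cox4i2 on 2 drug control arrays and Cox8c on 2 mitotic and 2 drug control arrays.

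**Figure D1:**
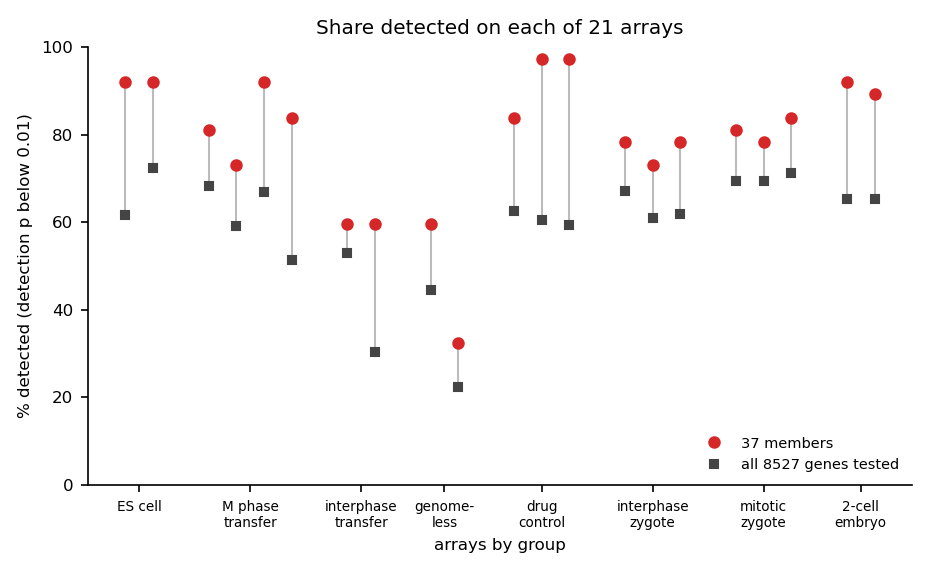
Percent of the 37 members (circles) and of all 8527 genes tested (squares) detected at a detection p below 0.01, for each of the 21 arrays by group. The members lie above all genes on every array, and the members are lowest in interphase transfer and genomeless embryos, where they reach 59.5% at most. For all genes, interphase transfer array A (52.9%) lies above M phase transfer array D (51.4%).

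Complexes III, IV and V had members that rose between the mitotic zygote and the 2-cell stage, while Uqcrc2 and Cox6a2 fell. In 2-cell embryos against mitotic zygotes, 7 of 37 members were called higher and 2 lower. Over all 8527 genes, 27.6% were called, 13.8% higher and 13.8% lower, and 24.3% of the members were called. The median log2 difference was 0.77 over the members and -0.02 over all genes. A gene was called where limma's adjusted p was below 0.05. Within chip 4, the array slide that carried both groups, all 9 kept their direction. Of the arrays compared, only mitotic array A lay on another slide, and it had been averaged with its near repeat, array C. The check thus reused nearly the same values, so the kept direction is no independent support. Without mitotic sample B 5 members were called, and with chip as a block 16.

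Complex III held 3 of the members that rose and 1 that fell. Uqcrc1 and Uqcrc2 are the core proteins of complex III, and their RNAs moved in opposite directions. Uqcrc1 stood at 8.92 and 9.44 in 2-cell embryos, against 6.79 and 6.56 in mitotic zygotes, a log2 difference of 2.50 ± 0.67 (SE, n = 2 each, limma adjusted p = 0.0123). Uqcrc2 stood at 9.56 and 9.57 in 2-cell embryos, against 11.84 and 11.93 in mitotic zygotes, a difference of -2.32 ± 0.39 (limma adjusted p = 0.000629). Every 2-cell sample was above every mitotic sample for Uqcrc1 and below every one for Uqcrc2. Cyc1, the cytochrome c1 that hands electrons to cytochrome c, measured 8.92 and 8.75 in 2-cell embryos, against 6.84 and 6.69 in mitotic zygotes (difference 2.07 ± 0.51, limma adjusted p = 0.00824). Uqcr11, a small subunit, was not detected on any mitotic array and was at least 2.02-fold higher in 2-cell embryos (limma adjusted p = 0.0463). A bound of this kind sets the brighter group against the lowest signal that counted as detected on each dim array.

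**Figure D2:**
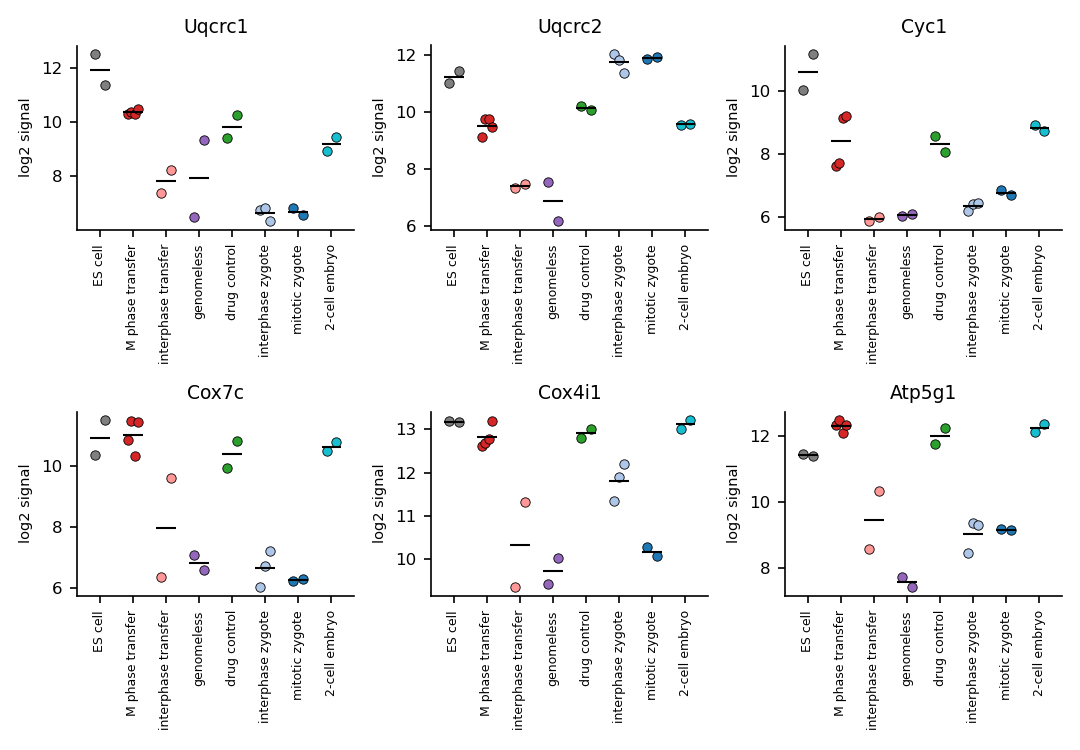
Log2 signal of Uqcrc1, Uqcrc2, Cyc1, Cox7c, Cox4i1 and Atp5g1 in each of the 19 samples by group (points), with the group mean (line). The mean of Uqcrc2 in 2-cell embryos, 9.57, lies below that of mitotic zygotes, while the 2-cell mean of each of the other 5 genes lies above its mitotic mean.

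In complex IV, Cox7c, Cox4i1 and Cox6b1 rose and Cox6a2 fell. Cox7c, a small membrane subunit, stood at 10.46 and 10.77 in 2-cell embryos, against 6.24 and 6.32 in mitotic zygotes, where no array detected it. It was at least 17.7-fold higher (limma adjusted p = 0.000986). Cox4i1, the widely expressed form of subunit 4, stood at 13.02 and 13.22 in 2-cell embryos, against 10.27 and 10.08 in mitotic zygotes (difference 2.94 ± 0.49, limma adjusted p = 0.000546). The groups did not overlap for either gene. Cox6b1 was higher by 1.56 ± 0.54 (limma adjusted p = 0.0422), and its second probe differed by 1.44. Cox5a and Cox5b, subunits close to the matrix side, differed by 0.01 ± 0.41 and 0.41 ± 0.56 and were not called.

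Atp5g1, for the c subunit, was the member of complex V that was called higher. It measured 12.12 and 12.36 in 2-cell embryos, against 9.17 and 9.14 in mitotic zygotes, with no overlap (difference 3.08 ± 0.46, limma adjusted p = 0.000238). The 3 subunits of the catalytic head named Atp5a1, Atp5b and Atp5c1 differed by 0.58 ± 0.84, 0.54 ± 0.31 and 1.69 ± 0.63 and were not called. No member of complex II was called, with differences of 0.36 ± 0.50 for the iron-sulfur subunit Sdhb and of -1.83 ± 0.75 and -0.21 ± 0.35 for the membrane anchors Sdhc and Sdhd.

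Normalisation bore on these counts. With each array scaled to its median in place of quantiles, the median of all genes lay at -0.22 in this comparison, and 4 members were called higher and 3 lower. The same scaling put the median of all genes at -0.44 for genomeless embryos over mitotic zygotes and at 0.33 for M phase over interphase transfer embryos. Cox6b1, Uqcr11 and Uqcrc1 lost their call under it at the 2-cell stage. With 1 sample left out in turn, Atp5g1, Cox4i1, Cox6a2, Cox7c and Uqcrc2 were called in 4 of 4 fits, Cyc1 in 2, Uqcrc1 in 1 and Cox6b1 and Uqcr11 in 0.

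**Figure D3:**
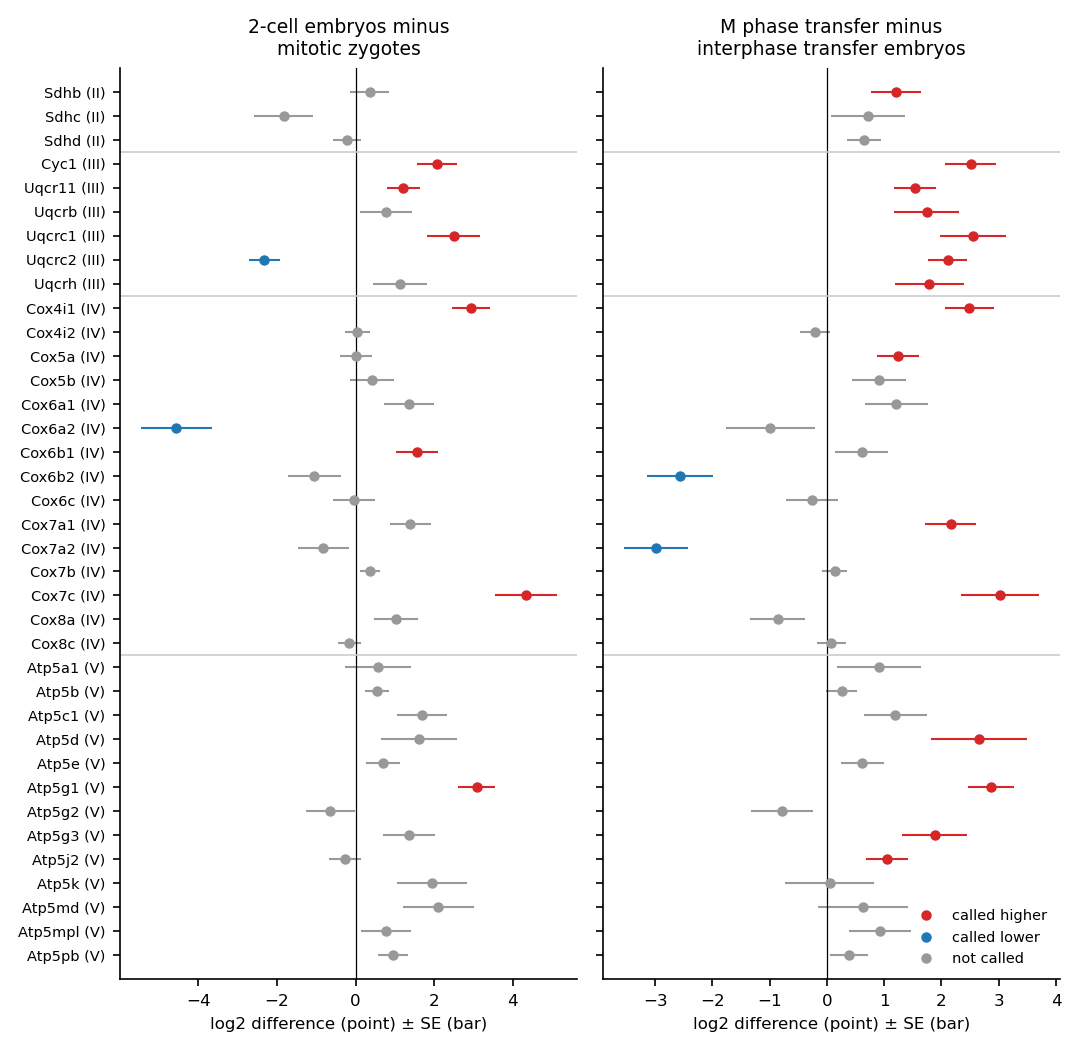
Log2 difference (point) with its SE (bar) of the 37 members, by complex, in 2-cell embryos minus mitotic zygotes (left) and M phase transfer minus interphase transfer embryos (right). Colours mark genes called higher or lower at a limma adjusted p below 0.05, and all 6 measured complex III genes are called higher on the right.

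The log2 ratio of paralogues shifted in 7 of the 7 pairs that could be tested. In the pairs of Cox7a1, Cox4i2 and Cox8c, 1 gene was near background in zygotes. How often pairs of unrelated genes shift was not tested. Samples of 2-cell age with their own genome (2-cell embryos and drug controls, n = 4) were set against all zygotes (n = 5) by the log2 ratio of the paralogues, with an exact two-sided permutation test. The smallest p this design allows is 0.0159, and p-values were adjusted over the 7 pairs. A shift shows unequal change of the paralogues and not which is more abundant. The Cox6a2 pair was among the reasons for looking at paralogues, so its shift is no independent support.

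Cox6a2, the heart and skeletal muscle form of subunit 6a, was high in zygotes and low in M phase transfer embryos, drug controls, 2-cell embryos and ES cells. Its log2 signal was 10.72, 11.85 and 12.13 in interphase zygotes, 10.89 and 11.27 in mitotic zygotes and 7.04 and 6.01 in 2-cell embryos. It was 6.38 to 7.51 in the 4 M phase transfer samples, and 6.46 and 7.33 in drug controls. All zygotes were above all of these samples. It was not detected in ES cells, at 6.33 and 6.03. The fall at the 2-cell stage against mitotic zygotes was -4.56 ± 0.90 (limma adjusted p = 0.00186). Cox6a1 went the other way, with a difference of 1.37 ± 0.64 at its probe with the highest signal and 1.38 at its second, and was not called. The log2 ratio of Cox6a2 to Cox6a1 averaged -4.32 ± 0.60 at 2-cell age and 1.48 ± 0.27 in zygotes (SD, n = 4 and 5), a shift of -5.80 (exact adjusted p = 0.0185). The groups did not overlap, with -3.90 as the highest ratio at 2-cell age and 1.16 as the lowest in zygotes. Interphase transfer and genomeless embryos were split. Cox6a2 stood at 9.16 and 6.52 in interphase transfer embryos and at 10.32 and 7.34 in genomeless embryos, with the lower value of each on the array with low raw signal.

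Among the ATP synthase c subunit genes, Atp5g1 gained on both others. The log2 ratio of Atp5g2 to Atp5g1 averaged -3.28 ± 0.11 at 2-cell age and 0.77 ± 0.70 in zygotes, a shift of -4.05 (exact adjusted p = 0.0185). The ratio of Atp5g3 to Atp5g1 shifted by -1.95, with means of 0.54 ± 0.35 at 2-cell age and 2.49 ± 0.36 in zygotes (exact adjusted p = 0.0185). No ratio overlapped between the groups in either pair. Atp5g2 alone differed by -0.64 ± 0.62 and Atp5g3 by 1.36 ± 0.66 in 2-cell embryos over mitotic zygotes, and neither was called.

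The testis form of subunit 6b lost against the widely expressed form, and the muscle form of subunit 7a gained. The ratio of Cox6b2 to Cox6b1 averaged -4.68 ± 0.33 at 2-cell age and -2.43 ± 0.26 in zygotes (shift -2.25, exact adjusted p = 0.0185). The ratio of Cox7a1 to Cox7a2 averaged 0.06 ± 1.05 at 2-cell age and -2.82 ± 0.40 in zygotes (shift 2.88, exact adjusted p = 0.0185). Cox7a1 was detected on every array of the ES cell, M phase transfer, drug control and 2-cell groups, and on no zygote, genomeless or interphase transfer array, so its zygote ratio sets a level near background beside Cox7a2. With the values of undetected arrays raised to their detection floor, a setting added after the data were seen, the shift was 2.36 for this pair and -5.61 for Cox6a2 over Cox6a1 (exact adjusted p = 0.0185 for each). Cox7a1 alone was not called in 2-cell embryos over mitotic zygotes (limma adjusted p = 0.0602). The ratio of Cox4i2 to Cox4i1 shifted by -1.58 (exact adjusted p = 0.0185) and that of Cox8c to Cox8a by -1.21 (exact adjusted p = 0.0317). Cox4i2 and Cox8c were detected on few arrays, as given above, so these ratios set a measured gene beside a level near background. The pairs of Cox7b2 and Cox8b had no probe kept.

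**Figure D4:**
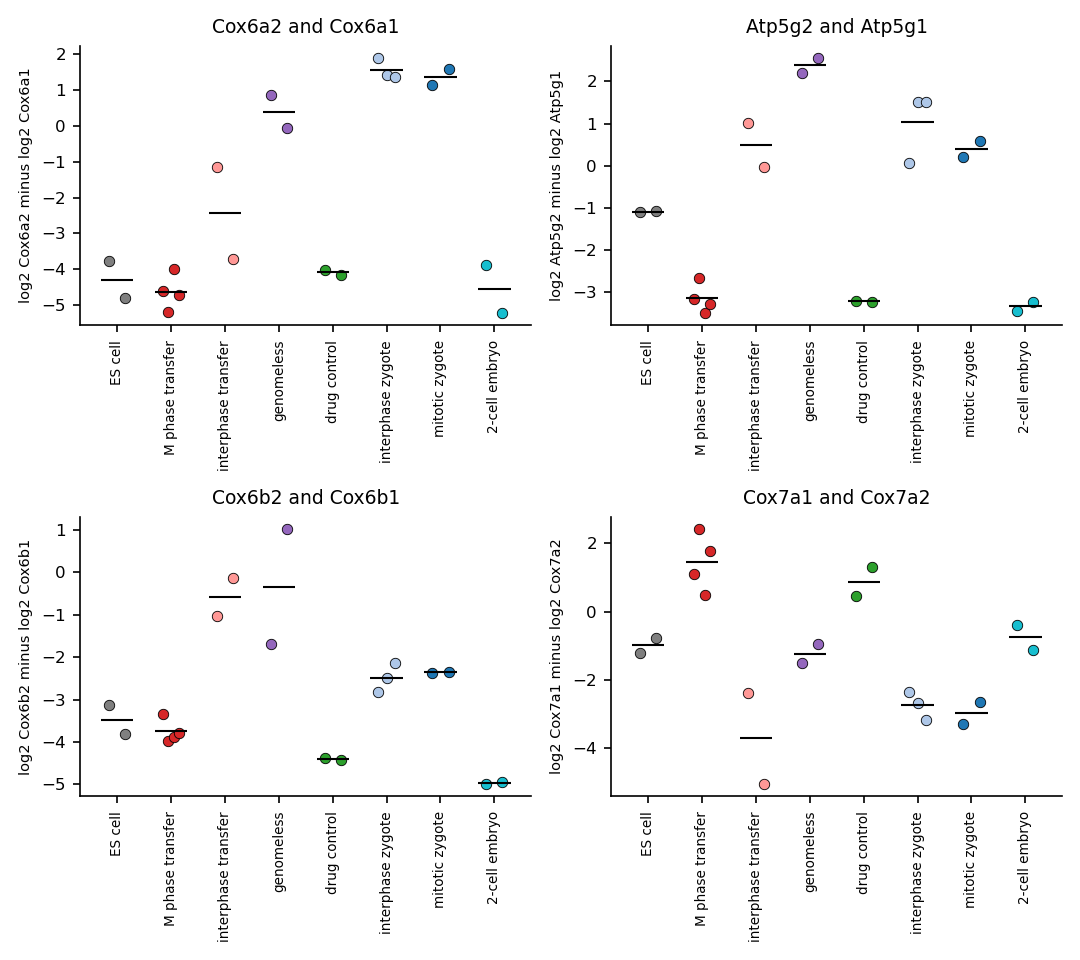
Log2 signal of 1 paralogue minus that of the other in each of the 19 samples by group (points), with the group mean (line), for 4 pairs. Cox6a2 minus Cox6a1 is between -5.21 and -3.90 in the 2-cell and drug control samples and between 1.16 and 1.89 in zygotes, and the mean of Cox7a1 minus Cox7a2 is 0.06 in the 2-cell and drug control samples and -2.82 in zygotes, where no array detected Cox7a1.

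No member was called between the zygote groups or between drug controls and 2-cell embryos. Mitotic zygotes were also older than interphase zygotes, were arrested with nocodazole and shared no chip with them. Stage, age, drug and chip can therefore not be told apart there. Mitotic against interphase zygotes gave 0 called members, and 0% of all genes were called by limma, with 4 members and 402 of all genes at an unadjusted p below 0.05. The largest differences were those of Cox4i1 (-1.64 ± 0.45) and Sdhd (-1.24 ± 0.32), with Cox4i1 at 10.27 and 10.08 in mitotic zygotes, against 11.34, 11.90 and 12.21 in interphase zygotes. The groups did not overlap for Cox4i1. Drug controls against 2-cell embryos also gave 0 called members and 0% of all genes called by limma, with 0 members and 96 genes at an unadjusted p below 0.05. The median over members was -0.18.

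Embryos without a genome had lower levels than mitotic zygotes for members of every complex, with the largest difference for Uqcrc2. In genomeless embryos against mitotic zygotes, 11 of 37 members were called lower and 1 higher. Of all genes, 20.4% were called, 13.5% lower and 6.85% higher. The median was -0.77 over members and -0.10 over all genes. Uqcrc2 stood at 7.56 and 6.18 in genomeless embryos, against 11.84 and 11.93 in mitotic zygotes. The difference was -5.02 ± 0.39 (limma adjusted p = 1.07e-05), or -3.74 with the value of the array that did not detect it raised to that array's detection floor. Uqcrc2 is the member that fell both in 2-cell embryos and in genomeless embryos relative to mitotic zygotes, the shared group of these comparisons. Sdhc differed by -2.86 ± 0.75 (limma adjusted p = 0.016), or -1.50 at the floor. Its second probe, detected on no array, differed by -0.03. Cox5a, at 9.48 and 9.41 in genomeless embryos, against 12.41 and 12.13 in mitotic zygotes, differed by -2.83 ± 0.41 (limma adjusted p = 0.000645) and was detected on every array. Sdhd was detected on no genomeless array, and its difference of -1.51 is within the floor there, so no fold is given. The 1 member called higher, Cox4i2, was detected in neither group. Without genomeless array B 6 members were called, and without either mitotic sample 3 and 2, so the count leans on single samples. Chip as a fixed block also gave 6.

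Against drug controls of the same age, genomeless embryos had 19 of 37 members lower and 0 higher. Of all genes, 30.7% were called, 19.2% lower and 11.4% higher. The median was -1.74 over members and -0.03 over all genes, and by complex 3 of 6 members were lower in III, 8 of 15 in IV and 8 of 13 in V, against 0 of 3 in II. Atp5g1 stood at 7.73 and 7.41 in genomeless embryos, against 11.75 and 12.24 in drug controls. Its difference was -4.42 ± 0.46 (limma adjusted p = 1.01e-05), or -3.76 at the floor. Atp5c1, the rotor's central shaft, differed by -4.01 ± 0.63 (limma adjusted p = 0.000311), or -2.80 at the floor, with 9.22 and 6.33 in genomeless embryos, against 11.87 and 11.69 in drug controls. Cox7c, Atp5a1, Cyc1, Cox7a1 and Atp5pb were called lower but detected on no genomeless array. Cox7c was at least 5.11-fold lower (limma adjusted p = 0.00355), Atp5a1 at least 2.92-fold, Cyc1 at least 1.23-fold and Cox7a1 at least 1.06-fold. The difference of Atp5pb, -1.17, is within the floor there, so no fold is given. Uqcrc2 also fell, by a difference of -3.26 ± 0.39 (limma adjusted p = 3.63e-05), or -1.98 at the floor. Cox4i1, detected on every array of both groups, differed by -3.19 ± 0.49 (limma adjusted p = 0.000251). Atp5b, the catalytic beta subunit, changed less, with 12.43 and 11.71 in genomeless embryos, against 13.55 and 13.44 in drug controls (difference -1.42 ± 0.31, limma adjusted p = 0.00331). Without drug control sample B and C 10 members were called. Fewer genes were detected on genomeless arrays, as given above, and the part of this in the differences was not tested.

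Genomes placed in M phase cytoplasm went with a higher level of every measured complex III gene than genomes placed at interphase. M phase transfer against interphase transfer embryos gave 15 of 37 members higher and 2 lower, and 29.1% of all genes were called, 17.8% higher and 11.4% lower. The median was 0.91 over members and 0.01 over all genes. All 6 complex III members were called higher, 4 of 15 in complex IV, 4 of 13 in complex V and 1 of 3 in complex II. The labels give no donor cell and no time since transfer for the interphase group, so the stage of the recipient cannot be told apart from either. Without interphase transfer sample A 9 members were called, 7 higher and 2 lower, and with the replicate letter as a block 11.

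In complex III, Uqcrc1 stood at 10.28, 10.35, 10.29 and 10.47 in M phase transfer embryos, against 7.37 and 8.23 in interphase transfer embryos. The difference was 2.55 ± 0.58 (limma adjusted p = 0.00426). Uqcrc2 stood at 9.11, 9.77, 9.74 and 9.48 in M phase transfer embryos, against 7.35 and 7.47 in interphase transfer embryos (difference 2.11 ± 0.34, limma adjusted p = 0.000366). Neither gene's groups overlapped, and the core proteins here went the same way, whereas they parted between mitotic zygotes and 2-cell embryos. Cyc1 was at least 1.93-fold higher (limma adjusted p = 0.000782), Uqcr11 at least 2.02-fold (0.00611) and Uqcrb at least 1.17-fold (0.0346), none of them detected on an interphase transfer array. Uqcrh, the hinge protein, was higher by 1.79 ± 0.60 (limma adjusted p = 0.0359). Uqcrb and Uqcrh lost their call without the 2 arrays of low signal. With 1 sample left out in turn, Uqcrc1, Uqcrc2 and Cyc1 were called in 6 of 6 fits, Uqcr11 in 5 and Uqcrb and Uqcrh in 2.

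Cox7c and Atp5g1 had the largest rises in complexes IV and V. Cox7c stood at 10.85, 11.45, 10.32 and 11.43 in M phase transfer embryos, against 6.36 and 9.60 in interphase transfer embryos, a difference of 3.03 ± 0.68 (limma adjusted p = 0.00383). Atp5g1 stood at 12.34, 12.49, 12.10 and 12.33 in M phase transfer embryos, against 8.57 and 10.33 in interphase transfer embryos (difference 2.87 ± 0.40, limma adjusted p = 0.000103). Neither overlapped, although the interphase transfer arrays lay far apart, with the array of low raw signal as the higher. Within chip 5, which does not hold that array, Cox7c differed by 4.79 and Atp5g1 by 3.85, and within chip 6, which does, by 1.28 and 1.89. Atp5d, the delta subunit, was higher by 2.65 ± 0.84 (limma adjusted p = 0.0279), or 2.26 at the floor. It stood at 6.14 and 9.61 in interphase transfer embryos, where 1 of 2 arrays detected it. Within chip 5 it differed by 4.36 and within chip 6 by 0.94. Its call was lost without the filter on detection and with the replicate letter as a block. Cox4i1 was higher by 2.49 ± 0.42 (limma adjusted p = 0.000567). Cox7a1 was at least 2.07-fold higher (limma adjusted p = 0.00236). Atp5g1, Cox4i1, Cox7c, Cyc1, Uqcr11 and Uqcrc1 were called higher both here and in 2-cell embryos over mitotic zygotes, comparisons that share no sample. They were 85.7% of the members called higher at the 2-cell stage and 40% of those called higher after M phase transfer. Over all genes, 848 were called higher in both, 71.9% of those called higher at the 2-cell stage and 56% of those called higher after M phase transfer.

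Cox7a2 and Cox6b2 ran the other way. Cox7a2, the widely expressed form of subunit 7a, stood at 6.95, 6.39, 7.25 and 7.76 in M phase transfer embryos, against 8.84 and 11.31 in interphase transfer embryos (difference -2.99 ± 0.56, limma adjusted p = 0.00115). Cox6b2 stood at 7.34, 7.54, 7.58 and 8.50 in M phase transfer embryos, against 9.12 and 11.48 in interphase transfer embryos (difference -2.56 ± 0.58, limma adjusted p = 0.00419). The groups did not overlap for either. A second probe of Cox6b2, detected on no array, differed by -0.32. The higher value of each gene came from interphase transfer array B, of low raw signal, and within chip 5, without it, the differences were -2.17 for Cox7a2 and -1.68 for Cox6b2.

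No member was called between embryos with a genome transferred at M phase and embryos with their own genome. In M phase transfer embryos against drug controls 0 members were called by limma, against 0.258% of all genes (0.129% higher and 0.129% lower), and 1 member and 672 genes had an unadjusted p below 0.05. The median over members was 0.07. The M phase transfer samples were not uniform, since arrays C and D on chip 6 exceeded arrays A and B on chip 5 by 2.57 for Atp5md, 2.19 for Atp5a1, 2.05 for Atp5k, 1.51 for Cyc1 and 1.12 for Cox6c. These 5 of 37 members (13.5%) were apart by at least 1 on the log2 scale, as were 17.7% of all genes.

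Interphase transfer embryos against drug controls had 9 members lower and 2 higher, and 26.6% of all genes were called, 17% lower and 9.52% higher. The median was -0.83 over members and 0.02 over all genes. The members that fell included Uqcrc2 (-2.72 ± 0.39, limma adjusted p = 0.000189, or -2.43 at the floor, with 1 of 2 interphase transfer arrays detecting it), Cox4i1 (-2.58 ± 0.49, limma adjusted p = 0.00145) and Atp5g1 (-2.55 ± 0.46, limma adjusted p = 0.000982). The 2 that rose were Cox6b2 (2.97 ± 0.67, limma adjusted p = 0.00466) and Cox7a2 (2.86 ± 0.65, limma adjusted p = 0.00471). This comparison shares the drug controls with that of M phase transfer embryos against drug controls, and the interphase transfer samples with that of M phase against interphase transfer. Without the 2 arrays of low signal 18 members were called, 15 lower and 3 higher, without drug control sample A or interphase transfer sample A 7, and without drug control sample B and C 6. Interphase transfer against genomeless embryos gave 0 called members, against 0.915% of all genes by limma, with 12 members and 1132 genes at an unadjusted p below 0.05. The median over members was 0.80. Cox7a2 differed by 2.75 ± 0.65, or 1.93 at the floor, and Cox6b2, detected on every array of both groups, by 1.90 ± 0.67. Without genomeless sample A 9 members were called, and without interphase transfer sample A 10.

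ES cells had 4 of 37 members (10.8%) higher than 2-cell embryos, near the 8.37% of all genes, and 0 lower, against 6.97%. Of all genes, 15.3% were called. The 4 members were Sdhd of complex II and Cyc1, Uqcrc1 and Uqcrc2 of complex III, 1 of 3 and 3 of 6 measured genes. The median was 0.52 over members and -0.02 over all genes. Uqcrc1 stood at 12.51 and 11.34 in ES cells, against 8.92 and 9.44 in 2-cell embryos (difference 2.75 ± 0.67, limma adjusted p = 0.0119). Cyc1 stood at 10.05 and 11.20 in ES cells, against 8.92 and 8.75 in 2-cell embryos (difference 1.79 ± 0.51, limma adjusted p = 0.0287). Uqcrc2 stood at 11.02 and 11.42 in ES cells, against 9.56 and 9.57 in 2-cell embryos (difference 1.65 ± 0.39, limma adjusted p = 0.0107). Sdhd was higher by 1.36 ± 0.35 (limma adjusted p = 0.0166). The groups overlapped for none of the 4 genes. The groups lay on different chips, so chip and group cannot be told apart here. Without 2-cell sample A the count was 0, and without 2-cell sample B or ES cell sample B it was 1. Without the 2 arrays of low signal, which are in neither group, it was 9. Cyc1 and Uqcrc2 lost their call with neqc background correction.

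**Figure D5:**
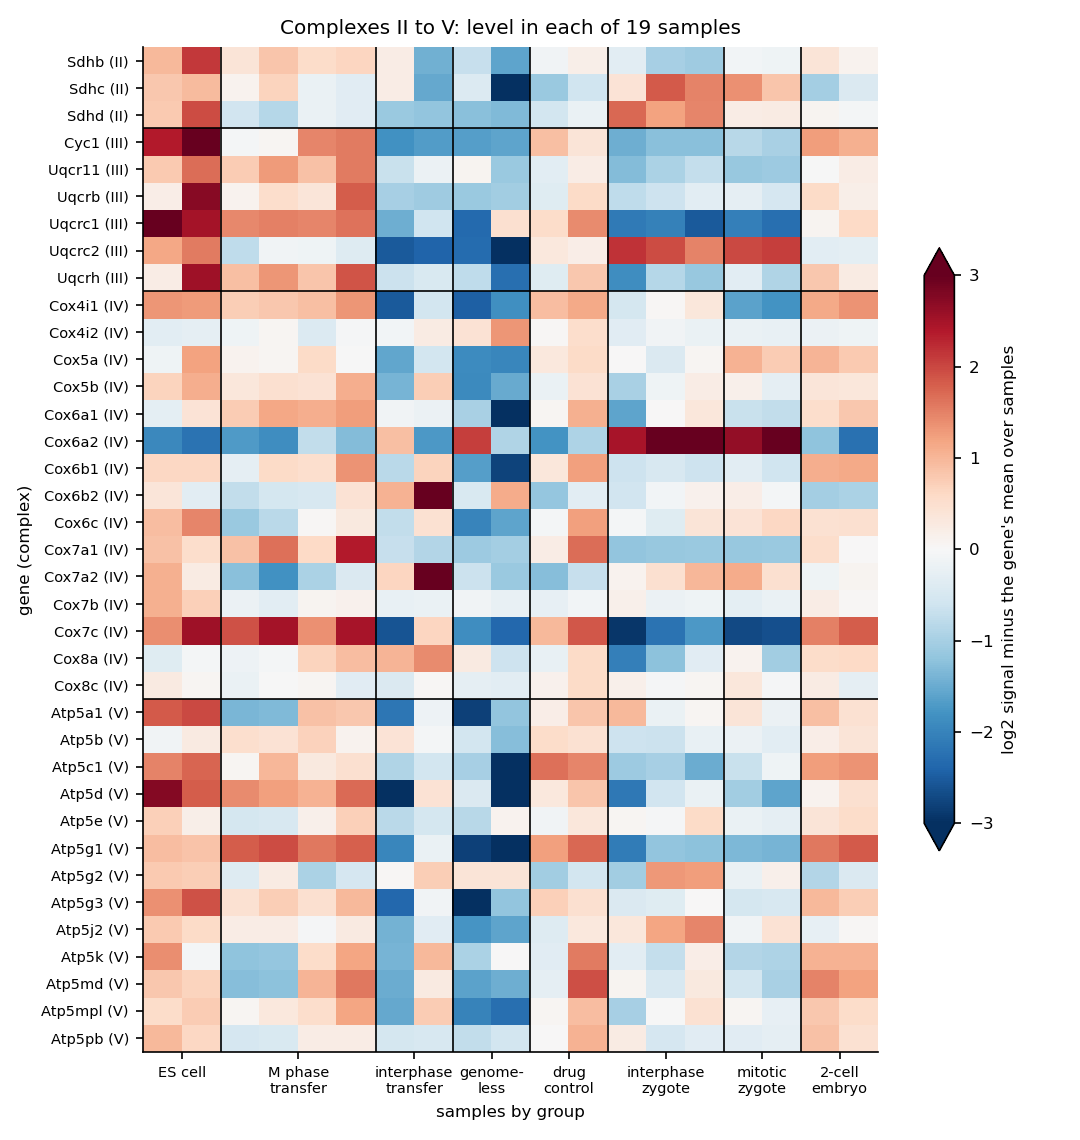
Log2 signal of the 37 members (rows, by complex) in the 19 samples (columns, by group), as the difference from each gene's mean over samples, with colours ending at -3 and 3. Cox6a2 and Uqcrc2 are highest in the zygotes among the embryo groups, and Atp5g1 and Cox7c in M phase transfer, drug control and 2-cell samples.

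Assembly factors and regulators of these complexes were counted in the same comparisons. From a list of 49 such genes 38 were tested. In 2-cell embryos over mitotic zygotes 9 were higher and 5 lower, against 13.8% and 13.8% of all genes. Whether the counts given here differ from the shares of all genes was not tested. Slirp, an RNA-binding protein of mitochondria, was at least 9.27-fold higher (limma adjusted p = 0.022), Gabpa at least 9.1-fold (0.000138) and Nrf1 at least 6.61-fold (0.000308). None of the 3 was detected on a mitotic array. Cox17, a copper chaperone for complex IV, was higher by 3.21 ± 0.68 (limma adjusted p = 0.003). Among the 5 lower, Tfb1m differed by -3.12 ± 0.54 (limma adjusted p = 0.000694) and Cox10 by -2.72 ± 0.55 (0.00216). Ppargc1b, detected on 0 of the 2-cell arrays, was at least 2.38-fold lower (limma adjusted p = 0.0277). Nrf1 was chosen for its motif after its value was seen. In M phase over interphase transfer embryos 14 were higher and 4 lower, against 17.8% and 11.4% of all genes. The mitochondrial RNA polymerase Polrmt was at least 8.13-fold (limma adjusted p = 6.36e-07) and Gabpa at least 4.8-fold (4.29e-05) higher. The complex IV assembly factor Cox14 was higher by 3.84 ± 0.39 (limma adjusted p = 7.65e-06). Genomeless embryos had 2 higher and 7 lower than mitotic zygotes, against 6.85% and 13.5% of all genes. They had 3 higher and 12 lower than drug controls, against 11.4% and 19.2% of all genes. Interphase transfer embryos had 2 higher and 11 lower than drug controls, against 9.52% and 17% of all genes. ES cells had 0 higher and 3 lower than 2-cell embryos, against 8.37% and 6.97% of all genes. In the other 4 comparisons 0 of the 38 were called by limma, in 2 of which, as given above, no gene of the array was called.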

How the data were processed

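The rule for members, and the lists, were chosen with earlier results of these data known. Per the labels, RNA isolated with PicoPure was amplified with an Illumina kit and biotin-labelled. GenomeStudio is the tool in the submitters' processing notes. The deposited values used are probe intensity, already background-subtracted and not normalised between arrays, and the detection p-value the authors deposited beside each. The deposited processed intensity is the same signal times 1 factor per array (mean 198.09 on every array). The sources used here give no tool settings or genome build.

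In R 4.3.3, limma 3.58.1 corrected background by normexp with an offset of 50, applied quantile normalisation and took log2. Of 24613 probes, 20984 carried 1 gene symbol, 1 several and 3628 none. The filter kept 11541 probes, those detected (p below 0.01) on 2 or more arrays, and the probe with the highest mean stood for its gene, which gave 8527 genes. A mean per group was fitted to 19 samples (11 residual degrees of freedom, moderated variances), with Benjamini-Hochberg adjustment over all genes within each of 10 comparisons. The fit was tested on simulated data. Paralogue ratios were tested with scipy 1.17.1. Members named came mainly from, per comparison, the 6 largest called in each direction, the catalytic and core subunits and all paralogue pairs. Not all of these are named in every comparison, and some members named lie outside these lists. Of the list of assembly factors and regulators, the 3 with the largest called difference are named for 2-cell over mitotic and for M phase over interphase transfer. None is named for the other comparisons, and others named were chosen after their values were seen. Replicate letters do not pair the samples: the mean correlation of deviations was 0.01 over 57 same-letter pairs and -0.01 over others.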

Additional observations from a re-analysis of the deposited data

Results flagged for a closer look

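Among the 4 M phase transfer samples, the 37 members were checked for a sample set apart from the others, and 2 had one. Cox5b measured 12.70 on array D, against 11.96 to 12.08 on the other arrays. Atp5j2 measured 11.86 on array C, against 12.10 to 12.15 on the others. Chance sets a sample apart in about 1 of 20 such groups. Other groups had too few samples for this check.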

How the results depend on the processing

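The 72 called differences of members kept their direction in all 1038 values recomputed under the alternatives, and 857 of these remained called. These alternatives reuse the same samples, so a kept direction is no independent support. Values at the detection floor were not among them, and there Sdhd in genomeless embryos over mitotic zygotes went from -1.51 to 0.52. Atp5pb in genomeless embryos over drug controls went from -1.17 to 0.83. The numbers of members called changed more than the directions under the alternatives. In 2-cell embryos over mitotic zygotes, 9 were called, 16 with chip as a fixed or as a random block, and 5 to 6 leaving out 1 sample. Genomeless over mitotic gave 12, 6 with chip as a fixed block, and 2 to 15 leaving out 1 sample. Genomeless over drug controls gave 19, and 10 to 20 leaving out 1. M phase over interphase transfer gave 17, 11 with the replicate block, and 9 to 16 leaving out 1. The letters share only a number, and among the other comparisons the replicate block moved no count by over 1.5 times. Interphase transfer over drug controls gave 11, 18 without the 2 arrays of low signal, and 6 to 14 leaving out 1. Interphase transfer over genomeless gave 0, 3 with the deposited mean-scaled values, 3 with 21 separate arrays, 3 with chip as a fixed block, 5 with chip as a random block, and 0 to 10 leaving out 1. ES cells over 2-cell embryos gave 4, 9 without the 2 arrays of low signal, and 0 to 4 leaving out 1. The causes were not tested. Chip as a fixed block could not be fitted for mitotic over interphase zygotes and ES cells over 2-cell embryos. Where 1 sample is left, it is assumed to vary like the other groups. The 7 paralogue shifts gave 5 with neqc background correction and 6 to 7 leaving out 1 sample. Levels below the detection floor, on the arrays of low signal and on others, limit what can be measured.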
